A study of Solanum pimpinellifolium with 60 samples.

Results

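The AP1/FUL clade of tomato MADS-box genes was followed through the change from vegetative to floral meristem in the lc, fas and lc/fas near-isogenic lines (NILs) and the wild type. The clade was taken as 5 genes, found by identifier among the 34725 genes of the count table: MC (Solyc05g056620), MBP20 (Solyc02g089210), FUL1 (Solyc06g069430), FUL2 (Solyc03g114830) and MBP10 (Solyc02g065730). All 5 had counts in all 60 libraries and all 5 were among the 18901 genes that passed the filter on low counts. The 3 NILs carry the mutant allele lc (SNPs downstream of SlWUS, the tomato WUSCHEL), the mutant allele fas (an inversion with a breakpoint in the promoter of SlCLV3, the tomato CLAVATA3) or both. They were backcrossed to the wild type, Solanum pimpinellifolium accession LA1589, a small-fruited wild tomato, so the 4 genotypes share the LA1589 background apart from the introgressed segments. Each genotype was sampled as sympodial shoot apical meristem (SYM), as the floral meristem sampled along with the inflorescence meristem (F&IM), and as floral buds of 3 ages (2, 4 and 6 dpi, counted in days from the initiation of the flower), with 3 replicates per genotype and stage, dissected from pooled inflorescences of plants 5 to 7 weeks old.

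AP1/FUL proteins are MADS-domain transcription factors that act in the change of a meristem to flowering and in the identity of the flower. In Arabidopsis, APETALA1 specifies the floral meristem and the sepals, and FRUITFULL acts in flowering time, inflorescence meristems and the fruit. In tomato, MC (MACROCALYX) is the AP1 gene known for the size of the sepals, the pedicel abscission zone and the inflorescence, FUL1 and FUL2 are known from fruit ripening, and MBP20 and MBP10 are the further FUL-type paralogs, known less well. The comparisons asked how the paralogs differ along the 5 stages and whether lc, fas or both changed them alike.

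The measurement was 3′ Tag RNA-seq, which reads only the 3′ end of each mRNA. Levels are given as RPM, the count of a gene per 1000000 counts of its library. Since an mRNA yields tags from its 3′ end alone, RPM was not divided by gene length when levels of different genes were set side by side. Whether reads that match more than 1 paralog were discarded or split is not given in the sources used here. Each wild-type library, those of the SYM included, holds more counts in the table than the clean reads listed for it, and the reason was not found. The wild type is the reference of every NIL comparison below. Library totals, divided by 1000000, lay between 0.441 and 9.17 (median 4.71). The smallest library was fas at 6 dpi, replicate 3, in which FUL2 had 19 counts, MBP20 had 7, FUL1 had 7 and MBP10 had 4. Across all libraries the count was 130 to 7191 for MC, 7 to 610 for MBP20, 7 to 536 for FUL1, 19 to 1018 for FUL2 and 3 to 39 for MBP10, so the values of MBP10 are by far the least precise. Markers of petals and stamens followed the labelled stages. Wild-type means of the B-class genes GLO1, GLO2 and TAP3 were 4.81 to 7.86 RPM in the SYM and F&IM, and rose at 4 dpi. TM6 was at 28.6 and 55.9 RPM in the wild-type SYM and F&IM. The meristem markers did not move alike. In the wild type SlWUS and STM were highest in the F&IM, whereas SlCLV3 fell from 62.66 RPM in the SYM to 45.35 RPM in the F&IM. In the SYM, SlCLV3 was at 32.0 ± 5.01 RPM in fas and 32.6 ± 6.58 RPM in lc/fas, against 62.7 ± 12.6 RPM in the wild type (SD, n = 3 each), and SlCLV3 fell in both lines (adjusted p = 0.0029 in lc/fas, 0.0034 in fas). Bulk tissue cannot separate more cells with a transcript from more transcript per cell.

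MC was by far the most abundant member in every wild-type stage. The 3 wild-type SYM libraries had 74.9, 73.6 and 58.2 RPM, and the F&IM libraries had 830, 941 and 917 RPM. Buds of the wild type had 770, 695 and 727 RPM at 2 dpi, 383, 410 and 553 RPM at 4 dpi, and 247, 356 and 329 RPM at 6 dpi. The SYM libraries lay far below all others, the F&IM and 2 dpi libraries were the highest, and every 4 dpi library stood above every 6 dpi library. MBP20 had 37.5, 38.8 and 25.6 RPM in the wild-type SYM libraries, and 87.5, 83.1 and 76.1 RPM in those of the F&IM. In wild-type buds it had 61.2, 63.6 and 62.7 RPM at 2 dpi, 18.4, 26.3 and 29.5 RPM at 4 dpi, and 16.4, 29.3 and 17.8 RPM at 6 dpi. In contrast to MC, its level in the SYM was above the means of 4 and 6 dpi, and the lowest SYM library (25.6 RPM) lay within the range of the older buds.

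FUL2 averaged 31.4 ± 4.95 RPM in the wild-type SYM and 123 ± 8.58 RPM in the F&IM. Its means in wild-type buds were 103 ± 12.2 RPM (2 dpi), 50.4 ± 13.7 RPM (4 dpi) and 51.5 ± 9.24 RPM (6 dpi). FUL1 averaged 12.2 ± 1.36, 71.3 ± 2.61, 68.6 ± 1.85, 29.1 ± 1.96 and 19.6 ± 1.56 RPM over the same stages. Both were highest in the F&IM and lowest in the SYM, with FUL1 at the lower level at every stage. MBP10 was at 1.17 ± 0.550, 3.29 ± 0.274, 4.88 ± 0.495, 4.10 ± 0.153 and 3.44 ± 1.00 RPM over the 5 stages from SYM to 6 dpi (SD, n = 3 for each group), and was the only member whose wild-type mean was highest at 2 dpi. The order of levels in the wild-type SYM was MC, then MBP20 and FUL2, whose libraries overlapped, then FUL1, then MBP10. In the F&IM it was MC, FUL2, MBP20, FUL1 and MBP10, with no overlap between neighbours. At 2 dpi FUL1 (66.8 to 70.5 RPM) stood above MBP20 (61.2 to 63.6 RPM), and at 4 and 6 dpi the 2 overlapped.

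**Figure D1:**
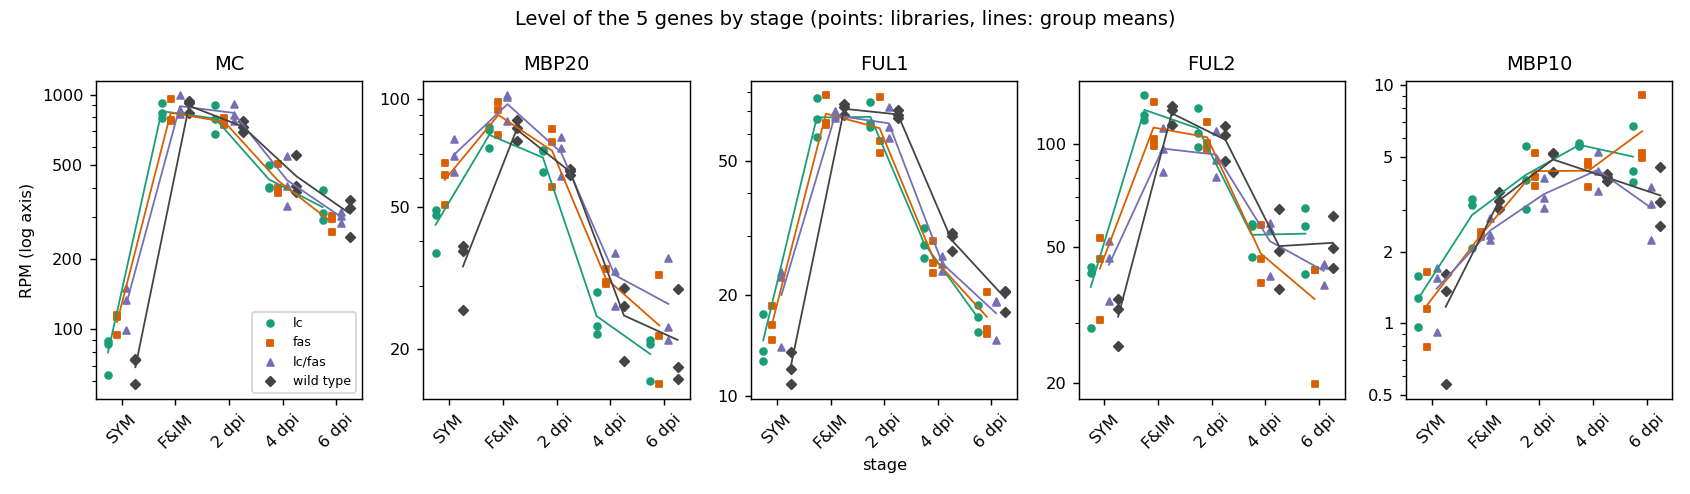
Level in RPM (log axis) of MC, MBP20, FUL1, FUL2 and MBP10 at the 5 stages in the 3 NILs and the wild type, where points are libraries and lines join the means of 3 libraries. MC, FUL1 and FUL2 are far higher in the F&IM than in the SYM, MBP20 starts at a level nearer to its peak, and MBP10 stays high up to 6 dpi.

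All 5 members rose between the SYM and the F&IM. Over the 4 genotypes the log2 fold change of F&IM against SYM was 3.18 ± 0.10 (SE) for MC, 2.11 ± 0.08 for FUL1, 1.52 ± 0.11 for FUL2, 1.07 ± 0.17 for MBP10 and 0.76 ± 0.09 for MBP20. The largest adjusted p of these was 6.15e-07, for MBP10. Of all genes tested, 15.9% rose at this step. In the wild type alone all 5 rose too, with log2 fold changes of 3.68 ± 0.18 for MC, 2.53 ± 0.15 for FUL1, 1.95 ± 0.22 for FUL2, 1.44 ± 0.31 for MBP10 and 1.24 ± 0.17 for MBP20, where 4.86% of all genes rose.

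The members parted after the F&IM. From the F&IM to 2 dpi MBP10 rose by a log2 fold change of 0.63 ± 0.14 (adjusted p = 0.00046) and MBP20 fell by 0.31 ± 0.09 on the log2 scale (adjusted p = 0.0050), while MC (-0.13 ± 0.09), FUL2 (-0.12 ± 0.11) and FUL1 (-0.04 ± 0.07) did not pass the test. At this step 20.2% of all genes rose and 19.6% fell, and in the wild type alone no member passed the edgeR test (7.51% of all genes did, MBP20 and MBP10 had an unadjusted p under 0.05, as 16.8% of all genes, and DESeq2 called neither). Between 2 and 4 dpi 4 members fell, against 21.9% of all genes: MBP20 by 1.28 ± 0.09, FUL1 by 1.26 ± 0.08, FUL2 by 1.00 ± 0.11 and MC by 0.82 ± 0.09 on the log2 scale. MBP10 stood at a log2 fold change of 0.14 ± 0.14 (adjusted p = 0.44). Between 4 and 6 dpi FUL1 fell by 0.57 ± 0.09, MC fell by 0.49 ± 0.09 and MBP20 fell by 0.26 ± 0.10 on the log2 scale (adjusted p = 0.054), against 9.78% of all genes, and FUL2 (-0.12 ± 0.12) and MBP10 (-0.14 ± 0.14) did not pass. The last call of MBP20 was lost without wild type replicate 3 (-0.23, adjusted p = 0.11) and without lc replicate 2 (-0.25, adjusted p = 0.10).

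In the wild type alone the fall between 2 and 4 dpi was called for the same 4 members, with 4.26% of all genes falling, and that between 4 and 6 dpi for FUL1 (-0.57 ± 0.15, adjusted p = 0.019) and MC (-0.52 ± 0.17, adjusted p = 0.077), with 1.29% of all genes falling. Without wild type replicate 1 the calls of MC at both steps (-0.56, adjusted p = 0.11, and -0.49, adjusted p = 0.40) and of FUL1 at the last step (-0.57, adjusted p = 0.18) were lost. Without wild type replicate 3 the calls of the last step were lost for MC (-0.42, adjusted p = 0.51) and FUL1 (-0.59, adjusted p = 0.15).

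The make-up of the clade changed with the stage. The summed level of the 5 members in the wild type was 148 ± 19.97 RPM in the SYM and 1176 ± 50.0 RPM in the F&IM, and in the buds it was 970 ± 47.2 RPM (2 dpi), 557 ± 108 RPM (4 dpi) and 406 ± 67.3 RPM (6 dpi). MC made up 46.7% ± 0.38 of this sum in the wild-type SYM, and 75.2% to 80.5% as group means in the 16 groups of later stages. MBP20 made up 22.8% ± 2.02 of the wild-type SYM and 7.0%, 6.5%, 4.4% and 5.2% as means of the later wild-type stages. In the SYM of lc/fas the shares were 48.4% ± 1.70 for MC, 26.7% ± 2.51 for MBP20, 16.9% ± 1.65 for FUL2 and 7.50% ± 0.78 for FUL1, against 46.7% ± 0.38, 22.8% ± 2.02, 21.2% ± 0.85 and 8.45% ± 2.17 in the wild type (SD, n = 3 each). The shares of lc/fas and the wild type did not overlap for MBP20 (24.8% to 29.6% in lc/fas, 20.6% to 24.4% in the wild type) and FUL2 (15.5% to 18.7% in lc/fas, 20.7% to 22.2% in the wild type), and overlapped for MC and FUL1.

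In the main edgeR fit all calls of members within a stage were in the SYM, the stage before the floral rise. MBP20 had 77.5, 62.6 and 69.1 RPM in the SYM of lc/fas, 50.5, 66.4 and 61.2 RPM in fas and 37.1, 48.9 and 47.3 RPM in lc, against 37.5, 38.8 and 25.6 RPM in the wild type. Every library of fas and lc/fas lay above every wild-type library, and lc overlapped with the wild type. MBP20 rose 2.01-fold in lc/fas (log2 fold change 1.01 ± 0.17, adjusted p = 0.0013) and 1.70-fold in fas (0.76 ± 0.18, adjusted p = 0.087). The value in lc was 0.38 ± 0.18 (adjusted p = 0.50), and none of the members passed in the SYM of lc, where 0.0159% of all genes did.

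MC had 150, 99.5 and 134 RPM in the SYM of lc/fas, 113, 116 and 94.1 RPM in fas and 86.3, 63.6 and 88.9 RPM in lc, against 74.9, 73.6 and 58.2 RPM in the wild type. Here too the libraries of fas and lc/fas were all above those of the wild type. MC rose 1.82-fold in lc/fas (log2 fold change 0.87 ± 0.17, adjusted p = 0.0080), and in fas its log2 fold change was 0.61 ± 0.17 (adjusted p = 0.30).

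FUL1 had 23.3, 13.998 and 22.6 RPM in the SYM of lc/fas and 14.7, 18.6 and 16.3 RPM in fas, against 10.9, 12.1 and 13.6 RPM in the wild type. No library of lc/fas or fas overlapped with the wild type, although the second library of lc/fas (13.998 RPM) was only just above it. FUL1 rose 1.62-fold in lc/fas (0.69 ± 0.16, adjusted p = 0.044), with a log2 fold change of 0.40 ± 0.16 in fas (adjusted p = 0.72). FUL2 had 46.4, 34.8 and 52.2 RPM in lc/fas and 30.6, 53.1 and 46.4 RPM in fas, against 35.3, 32.9 and 25.8 RPM in the wild type, so that 1 library of each NIL overlapped with the wild type. Its log2 fold changes were 0.48 ± 0.22 in lc/fas (adjusted p = 0.59) and 0.41 ± 0.22 in fas (adjusted p = 0.83). MBP10, with 3 to 12 counts per SYM library, had log2 fold changes of 0.20 ± 0.35 in lc/fas and 0.07 ± 0.36 in fas, and a change of this size was not detectable at this depth.

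**Figure D2:**
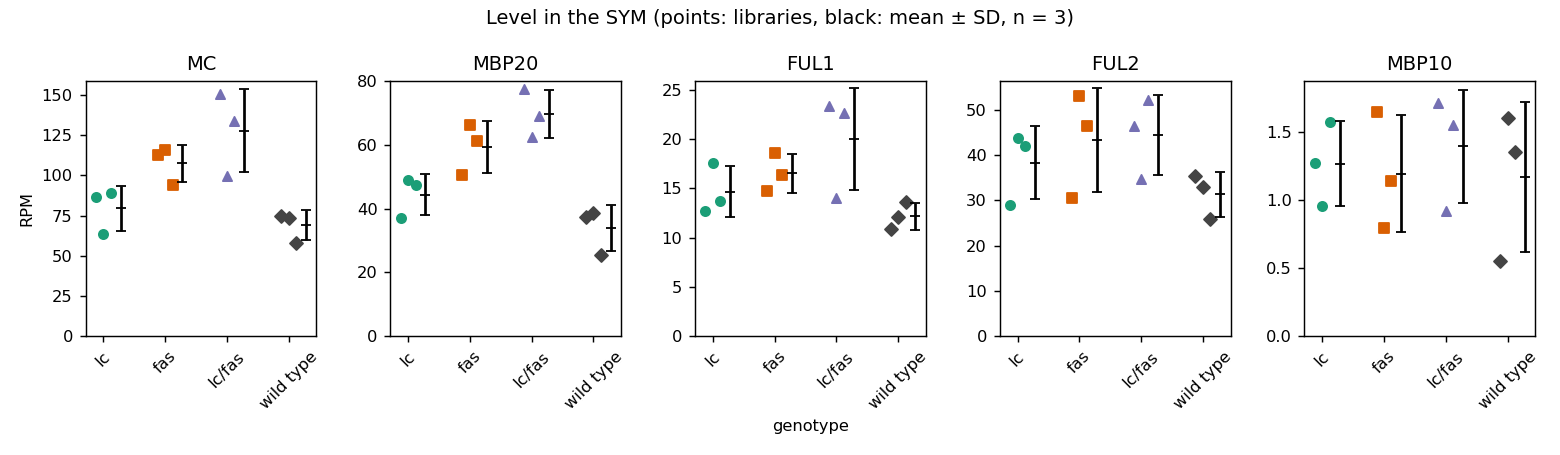
Level in RPM of the 5 genes in the SYM of the 3 NILs and the wild type, where points are libraries and the black bars are means ± SD (n = 3). For MC, MBP20 and FUL1 all libraries of fas and lc/fas stand above those of the wild type, and for FUL2 and MBP10 the genotypes overlap.

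In the SYM the members called higher were thus 3 of 5 in lc/fas and 1 of 5 in fas, where 0.106% and 0.0476% of all genes rose. With the replicate number as a block the same 3 members were called in lc/fas, while the count over all genes was 115 against 29. In fas, where the numbers pair the libraries less clearly, MC was called as well with the block (0.61, adjusted p = 0.078). All libraries of lc/fas were above every wild-type library in 3 of 5 members and all those of fas in 3 of 5, against 9.71% of all genes for lc/fas and 5.11% for fas. The wild-type SYM libraries bear on these calls: without wild type replicate 3, the lowest for MC, MBP20 and FUL2, no member was called (in lc/fas MBP20 0.86, adjusted p = 0.11, MC 0.78, adjusted p = 0.17, FUL1 0.79, adjusted p = 0.11; in fas MBP20 0.60, adjusted p = 0.95). Over all tested genes the wild-type SYM library of replicate 3 also stood apart. It correlated at r = 0.953 and 0.959 with replicates 1 and 2, which correlated at r = 0.989 with each other. Without lc/fas replicate 1, MC (0.74, adjusted p = 0.19) and FUL1 (0.58, adjusted p = 0.57) were not called in lc/fas, FUL1 was not called without wild type replicate 1 (0.62, adjusted p = 0.28), wild type replicate 2 (0.67, adjusted p = 0.23) or lc/fas replicate 3 (0.58, adjusted p = 0.50), and the call of MBP20 in fas held in 1 of the 12 fits that left out a collection of 1 genotype and replicate number, with log2 fold changes of 0.60 to 0.85 in all of these. With the SYM libraries alone MBP20 in lc/fas passed, but not MC (0.89, adjusted p = 0.19) or FUL1 (0.71, adjusted p = 0.53) in lc/fas or MBP20 in fas (0.78, adjusted p = 0.38). The call of MBP20 in fas was also lost with total counts (0.79, adjusted p = 0.10), the stricter filter (0.76, adjusted p = 0.12) and no filter (0.77, adjusted p = 0.19), and FUL1 in lc/fas was lost with no filter on low counts (0.70, adjusted p = 0.14) and with limma-voom and a random block for the collection (0.66, adjusted p = 0.16).

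Of the other floral and meristem genes listed, only SlWUS and J2 were called higher in the SYM of lc/fas. SlWUS was at 21.7 ± 0.80 RPM in lc/fas and 18.8 ± 1.53 in fas, against 11.2 ± 1.89 in the wild type, and rose in lc/fas (log2 fold change 0.94 ± 0.19, adjusted p = 0.0078). STM, which keeps shoot meristem cells undifferentiated, had a log2 fold change of 0.55 ± 0.14 in lc/fas (adjusted p = 0.22). Of the SEPALLATA clade, whose proteins work as partners of the AP1/FUL proteins, 1 of 6 rose in the SYM of lc/fas, J2, with 7.24 ± 3.59 RPM in lc/fas against 2.21 ± 1.28 RPM in the wild type (1.75 ± 0.33, adjusted p = 0.0038). J2 had 5 to 16 counts per wild-type SYM library and 22 to 52 per SYM library of lc/fas. None of the 11 flowering and inflorescence regulators or the 4 B-class genes was called there, where 0.106% of all genes rose. The median log2 fold change in the SYM of lc/fas was 0.69 over the 5 AP1/FUL genes, 0.63 over the 6 SEPALLATA genes, 0.20 over the 11 flowering and inflorescence regulators and 0.19 over the 4 B-class genes, against -0.01 over all genes. SlWUS, STM and the SEPALLATA genes were higher in the wild-type F&IM than in the wild-type SYM, as were the 5 members. The third meristem marker, SlCLV3, was lower in the wild-type F&IM (45.35 RPM) than in the wild-type SYM (62.66 RPM). The excess over the wild-type SYM in lc/fas amounted to 74.1% of the wild-type difference between F&IM and SYM for MBP20. It was 14.3% for FUL2, 13.2% for FUL1, 10.6% for MBP10 and 7.13% for MC. For SlWUS it was 36.0%, for STM 42.1% and for J2 10.7%. Among the flowering regulators it was 58.5% for CNR, 50.3% for FA, 21.8% for S, 18.7% for AN, 15.2% for J and -5.45% for SFT. The B-class gene TM6 had 36.4%. Besides J2, the SEPALLATA genes had 31.7% (TM5), 25.5% (RIN), 19.85% (TM29), 6.35% (EJ2) and 4.27% (LIN). RIN and AN stood at only 2.83 and 2.22 RPM in the SYM of lc/fas. The 5 flowering regulators that fell between the SYM and the F&IM did not move one way in the SYM of lc/fas: SP and TMF were at 34.4 and 233 RPM in lc/fas, against 41.4 and 272 RPM in the wild type, whereas STM3, SSP and MBP24 were at 181, 393 and 103 RPM in lc/fas, against 155, 314 and 95.3 RPM in the wild type. The part of the stage of the dissected SYM or of the amount of meristem in these differences was not tested.

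Beyond the SYM no member was called in any NIL in the main edgeR fit or by DESeq2. Over the 3 NILs and 4 later stages this was 0 of 60 tests by edgeR and 0 by DESeq2, against 0.270% of such tests over all genes, with 3 at an unadjusted p under 0.05, against 3.90%. The nearest was FUL2 at 6 dpi in fas, with 19.9, 43.0 and 43.1 RPM against 43.4, 49.7 and 61.6 RPM in the wild type (log2 fold change -0.67 ± 0.24, adjusted p = 0.13, and -0.62, adjusted p = 0.051, with the replicate number as a block), a lack of overlap that held for 6.33% of all genes. The lowest value came from replicate 1, with 88 counts of FUL2. The smallest of the 60 libraries, replicate 3, was at 43.1 RPM from 19 counts. Of all genes, 3.01% were called in fas at 6 dpi. At the same stage MBP10 was at 4.97, 5.20 and 9.06 RPM in fas, against 3.23, 4.54 and 2.56 RPM in the wild type (0.67 ± 0.28, adjusted p = 0.20), a lack of overlap seen in 2.73% of all genes. Its highest value rests on 4 counts in the smallest library, replicate 3. FUL2 in the F&IM of lc/fas (96.8, 83.3 and 112 RPM) was below every wild-type library (126, 114 and 130 RPM), at -0.34 ± 0.21 (adjusted p = 1.0), and MBP10 lay below all wild-type libraries of its stage in fas (F&IM) and lc/fas (F&IM and 2 dpi). The share of all genes with every library of lc/fas below the wild type was 6.18% in the F&IM and 3.97% at 2 dpi, and that of fas was 2.55% in the F&IM. FUL1 at 4 dpi in lc/fas, at 24.7, 23.6 and 26.1 RPM, was below the wild type with 30.6, 29.9 and 26.9 RPM, as were 3.51% of all genes. MBP10 in lc had 5.61, 5.54 and 5.71 RPM at 4 dpi, all above the 4.25, 3.94 and 4.11 RPM of the wild type (0.46 ± 0.26, adjusted p = 1.0), which held for 3.00% of all genes. At 6 dpi it had 4.37, 3.92 and 6.74 RPM in lc, overlapping with the wild type (0.60 ± 0.26, adjusted p = 0.84). Without wild type replicate 2, 6 member tests were called over all 5 stages, with 7975 calls over all genes. The main edgeR fit had 4, with 659 over all genes. Which stages held these 6 is not given here.

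MBP20 was the only member that changed over the 5 stages together. It passed the joint test of genotype (adjusted p = 0.00085), which 3.23% of all genes passed. It rose 1.34-fold in lc/fas (log2 fold change 0.42 ± 0.08, adjusted p = 0.0018), where 0.831% of all genes rose, and 1.24-fold in fas (0.31 ± 0.08, adjusted p = 0.035), where 0.979% of all genes rose. Of its 15 libraries per line, 14 in lc/fas and 12 in fas were above the wild-type mean of their stage, and the stage means were higher in 5 of 5 stages in both lines. In lc its log2 fold change was 0.07 ± 0.08 (adjusted p = 0.81), with 9 of 15 libraries above.

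At the later stages the rise of MBP20 was small beside the spread. In the F&IM it had 101, 102 and 86.9 RPM in lc/fas and 93.2, 98.4 and 79.2 RPM in fas, against 87.5, 83.1 and 76.1 RPM in the wild type. At 2 dpi the values were 78.5, 73.1 and 61.0 RPM in lc/fas and 76.0, 82.4 and 56.6 RPM in fas, against 61.2, 63.6 and 62.7 RPM in the wild type. At 4 dpi they were 26.4, 37.0 and 33.0 RPM in lc/fas and 30.7, 33.5 and 30.4 RPM in fas, against 18.4, 26.3 and 29.5 RPM in the wild type, so that at 4 dpi the libraries of fas did not overlap with the wild type, which held for 5.76% of all genes. At 6 dpi lc/fas had 21.2, 35.9 and 23.0 RPM and fas had 21.7, 32.1 and 15.9 RPM, against 16.4, 29.3 and 17.8 RPM in the wild type, with overlap in both. With the 4 floral stages alone the log2 fold changes were 0.27 in lc/fas (adjusted p = 0.20) and 0.21 in fas (adjusted p = 0.38), neither called, and with counts summed per collection neither was called (0.34 in both, adjusted p = 1.0). With limma-voom and a random block for the collection the joint test of genotype (adjusted p = 0.12), lc/fas (0.42, adjusted p = 0.10) and fas (0.33, adjusted p = 0.38) were not called either. The call in fas was also lost without wild type replicate 1 (0.27, adjusted p = 0.19), wild type replicate 3 (0.30, adjusted p = 0.14) or fas replicate 2 (0.23, adjusted p = 0.49).

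The other 4 members were not called over the stages in any NIL by edgeR or DESeq2. The other members had log2 fold changes in lc/fas of 0.18 ± 0.08 for MC (unadjusted p = 0.033, adjusted p = 0.46), 0.01 ± 0.07 for FUL1, -0.06 ± 0.10 for FUL2 and -0.20 ± 0.13 for MBP10. In fas they were 0.04 ± 0.08 for MC, -0.06 ± 0.07 for FUL1, -0.09 ± 0.10 for FUL2 and 0.01 ± 0.13 for MBP10. In lc the values of all 5 lay between -0.03 and 0.16, with no member called, where 0.323% of all genes were called, and none at an unadjusted p under 0.05, which 8.59% of all genes had. The identifiers of MBP20 and MBP10 place both on chromosome 2, as that of SlWUS, near which lc lies. The study maps the introgressed segment of lc to a short stretch of this chromosome, and the distance of MBP20 and MBP10 from it was not computed here.

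Neither lc/fas against fas (0 of 5 called against 0.127% of all genes, none at an unadjusted p under 0.05 against 4.08%) nor the lc by fas interaction (0 of 5 against 0.164%, none at an unadjusted p under 0.05 against 6.39%) was called for a member by edgeR or DESeq2. For MBP20 the difference of lc/fas from fas was 0.10 ± 0.08 on the log2 scale and the departure from the sum of both single effects was 0.03 ± 0.12. The genotype by stage interaction was called for no member by edgeR or DESeq2 (0.0212% of all genes called), although MC and FUL1 had an unadjusted p under 0.05, as 1.33% of all genes. The SYM calls of MC and FUL1 are therefore not shown to differ from the later stages once adjusted over all genes.

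**Figure D3:**
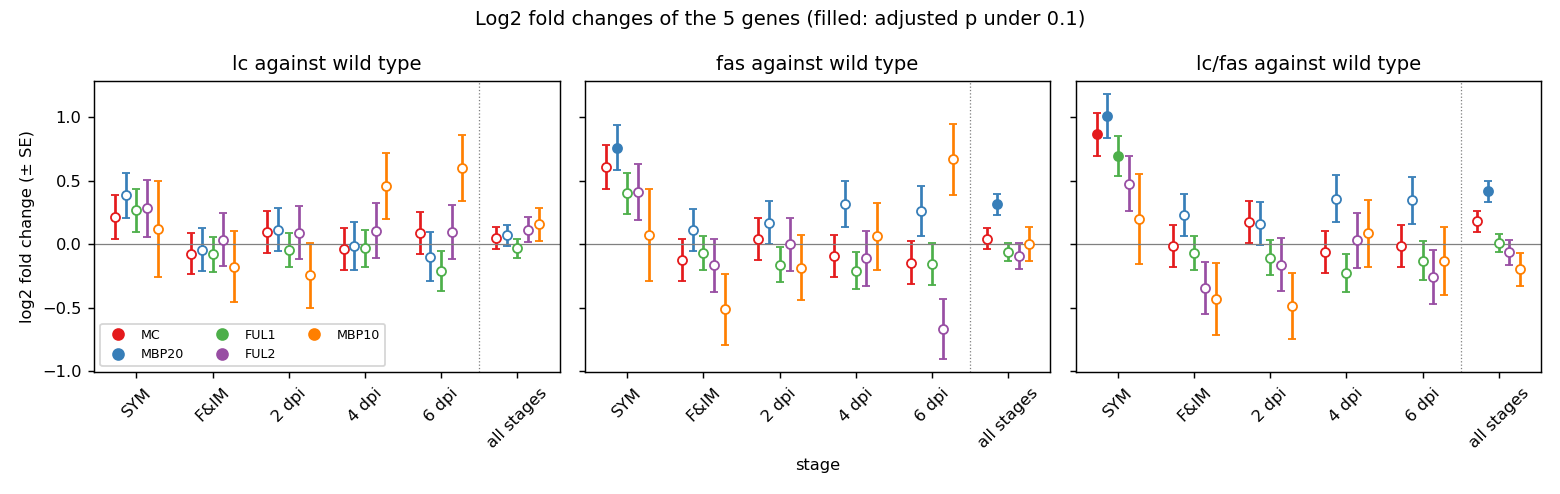
Log2 fold change (± SE) of the 5 genes in lc, fas and lc/fas against the wild type at each stage and over all stages, where filled points have an adjusted p under 0.1. The filled points are MBP20 in fas and MC, MBP20 and FUL1 in lc/fas in the SYM, and MBP20 over all stages in fas and lc/fas.

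Whether the paralogs responded unequally was tested on the log2 ratio of 2 members within a library, which needs no scaling factor. All 10 pairs were compared between each NIL and the wild type by exact two-sided permutation of the genotype within stages, and the p-values were adjusted over these 30 comparisons. In lc/fas 5 of 10 pairs differed, in fas 3 of 10 and in lc none of 10. With exact sign changes within same-numbered pairs of a stage, which keep the replicate number as a block, 7 of 10 pairs differed in lc/fas, the same 5 and MC to FUL1 (0.17, adjusted p = 0.078) and MC to MBP10 (0.32, adjusted p = 0.078), and the same 3 in fas. The members were chosen with results of these data known, so these adjusted values are not independent evidence.

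Most of the differing pairs held MBP20. In lc/fas the mean log2 ratio of MBP20 to FUL2 was -0.23 against -0.71 in the wild type, a difference of 0.48 (exact permutation p = 8.38e-05, adjusted 0.0025), and it was higher in lc/fas at 5 of 5 stages. MBP20 to FUL1 differed by 0.41 in lc/fas (adjusted p = 0.0028, exact permutation test) and MBP20 to MBP10 by 0.57 (adjusted p = 0.0028, exact permutation test), both higher at 5 of 5 stages. In fas MBP20 gained on FUL1 by 0.35 (adjusted p = 0.0070, exact permutation test) and on FUL2 by 0.40 (adjusted p = 0.022, exact permutation test), again at 5 of 5 stages. MC lost on MBP20 by nearly the same amount in both lines, with differences of -0.25 in lc/fas (adjusted p = 0.022, exact permutation test) and -0.24 in fas (adjusted p = 0.047, exact permutation test), and MC gained on FUL2 in lc/fas (0.23, adjusted p = 0.022, exact permutation test). The ratio of FUL1 to FUL2 stood at 0.07 in lc/fas, 0.04 in fas and -0.14 in lc relative to the wild type (exact permutation p of 0.54, 0.73 and 0.19).

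The ratio of MBP20 to FUL2 was higher at each stage. The mean log2 ratio in the SYM was 0.66 in lc/fas and 0.48 in fas, against 0.10 in the wild type, and in the F&IM it was 0.00 in lc/fas and -0.30 in fas, against -0.58 in the wild type. At both stages all libraries of both lines were above every wild-type library. At 2 dpi the ratio was -0.39 in lc/fas and -0.56 in fas, against -0.71 in the wild type, with 2 of 3 libraries of each line above. At 4 dpi it was -0.69 in lc/fas (3 of 3 above) and -0.59 in fas (2 of 3), against -1.02 in the wild type, and at 6 dpi -0.72 in lc/fas (1 of 3) and -0.56 in fas (2 of 3), against -1.32 in the wild type. With the 4 floral stages alone 4 of 10 pairs differed in lc/fas and 3 of 10 in fas, and the pair lost in lc/fas was MC to FUL2 (0.19, adjusted p = 0.15, exact permutation test). In lc/fas the ratios of MBP20 to FUL1, FUL2 and MBP10 were called in all fits that left out 1 collection, as was that to FUL1 in fas.

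The other calls depended on single collections. In fas the ratio of MC to MBP20 was not called without wild type replicate 1 (-0.24, adjusted p = 0.13), wild type replicate 3 (-0.18, adjusted p = 0.26) or fas replicate 2 (-0.12, adjusted p = 0.36, all by exact permutation), nor was MBP20 to FUL2 in fas without wild type replicate 3 (0.30, adjusted p = 0.18) or fas replicate 1 (0.25, adjusted p = 0.17, by exact permutation). In lc/fas the ratio of MC to MBP20 was lost without wild type replicate 3 (-0.18, adjusted p = 0.18) or lc/fas replicate 2 (-0.12, adjusted p = 0.31), and MC to FUL2 without wild type replicate 3 (0.19, adjusted p = 0.18) or lc/fas replicate 1 (0.16, adjusted p = 0.15, by exact permutation). Without wild type replicate 3 the ratio of MC to FUL1 was called in lc/fas (0.20, adjusted p = 0.079), and without lc replicate 2 it was called in lc (0.22, adjusted p = 0.081, by exact permutation). Libraries of 1 collection are not independent of each other, and with 1 mean per collection 3 are set against 3, where the exact permutation test cannot go below p = 0.1.

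**Figure D4:**
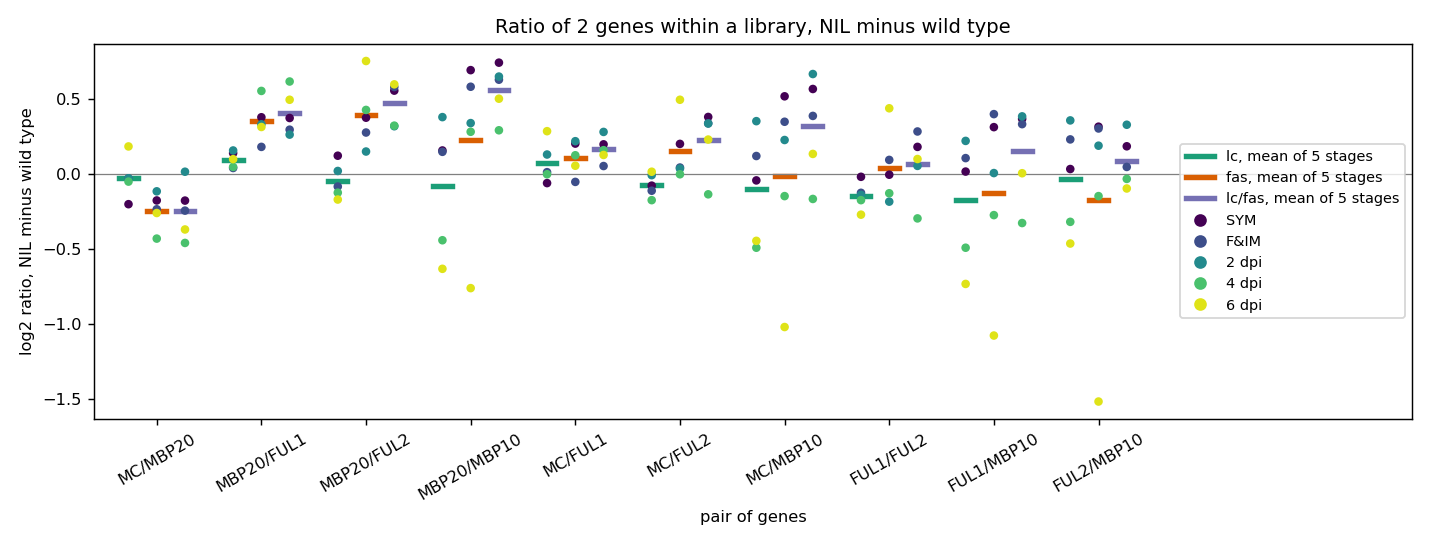
Difference of the log2 ratio of 2 genes within a library, NIL minus wild type, for the 10 pairs in lc, fas and lc/fas, where points are stages (means of 3 libraries each) and thick lines are means over the 5 stages. The ratios of MBP20 to FUL1 and to FUL2 are above 0 at every stage in fas and lc/fas, and the widest scatter belongs to the pairs with MBP10, whose counts are low.

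The paralogs also differed in the genes whose profiles resembled theirs. Pearson's r was taken over the 20 group means of log2(RPM + 1) among the 14473 genes whose mean reached 5 RPM, as a description, since the groups share stages and a common wild type. The gene nearest to MBP20 was SlWUS (Solyc02g083950, r = 0.982), followed by STM (Solyc02g081120, r = 0.965) and Solyc07g005140 (r = 0.964). SlWUS and STM had been listed as meristem markers. FUL1 and FUL2 were nearest to each other (r = 0.968), and shared Solyc01g016470 (r = 0.964 with FUL1 and 0.961 with FUL2) and Solyc12g006860 (r = 0.963 and 0.948) as the next. MC was nearest to Solyc06g060110 (r = 0.975), Solyc07g055210 (r = 0.974) and LIN of the SEPALLATA clade (Solyc04g005320, r = 0.974). MBP10 was nearest to Solyc08g060920 (r = 0.957), Solyc03g120850 (r = 0.954) and Solyc08g077890 (r = 0.948).

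Between the members r was 0.891 for MC with FUL1, 0.859 for MC with FUL2, 0.734 for MBP20 with FUL1, 0.726 for MBP20 with FUL2 and 0.391 for MC with MBP20. MBP10 was at 0.622 with MC and at -0.368 with MBP20. Within the wild type alone, over 5 group means, MBP20 and SlWUS had r = 0.976 and FUL1 and FUL2 r = 0.975, while MBP10 was at 0.888 with MC and at 0.171 with MBP20, so that the last of these turned its sign. SlWUS averaged 21.7, 45.5, 26.2, 9.33 and 4.46 RPM over the 5 stages in lc/fas, and 11.2, 40.5, 26.2, 5.31 and 1.84 RPM in the wild type. STM averaged 321, 505, 456, 181 and 95.4 RPM in lc/fas, and 216, 465, 379, 151 and 77.0 RPM in the wild type. Over the stages SlWUS rose by 0.49 ± 0.10 (adjusted p = 0.0032) and STM by 0.30 ± 0.06 (adjusted p = 0.0034) on the log2 scale in lc/fas, beside the 0.42 ± 0.08 of MBP20, and in fas, where MBP20 rose by 0.31 ± 0.08, SlWUS stood at 0.31 ± 0.10 (adjusted p = 0.13) and STM at 0.16 ± 0.06 (adjusted p = 0.21). The part of the amount of meristem in the rise of MBP20 was not tested.

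**Figure D5:**
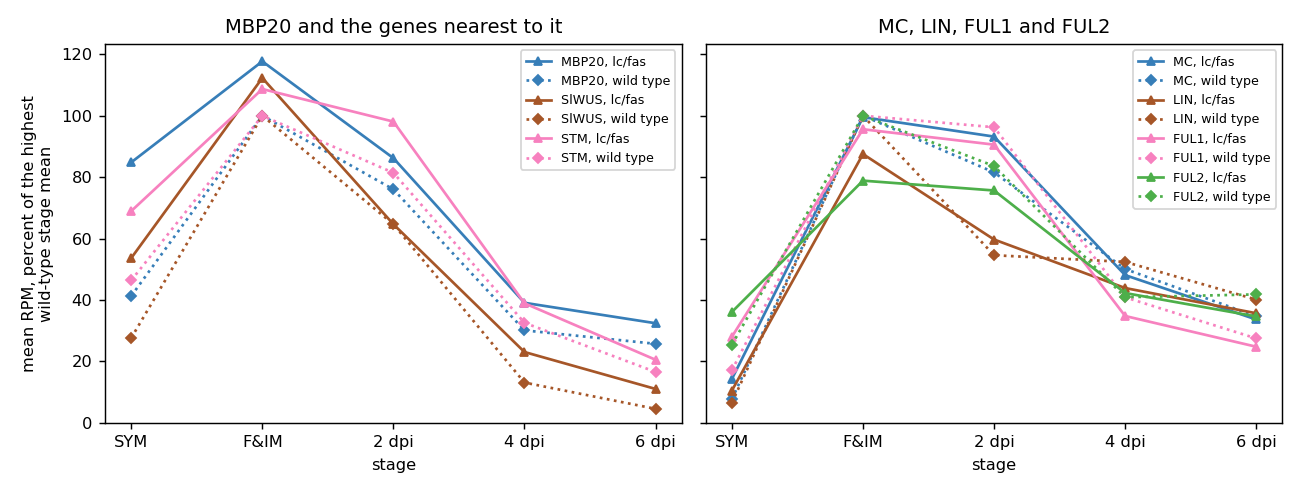
Mean RPM by stage as a percentage of the highest wild-type stage mean of the same gene, for MBP20, SlWUS and STM (left) and for MC, LIN, FUL1 and FUL2 (right), in lc/fas (solid lines) and the wild type (dotted lines). MBP20, SlWUS and STM are already well above their lowest level in the SYM and fall steeply between 2 and 4 dpi, while MC, LIN, FUL1 and FUL2 are lowest or close to lowest in the SYM.

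Many of the related MADS-box and flowering genes had other profiles than the members, whereas LIN of the SEPALLATA clade was close to MC (r = 0.974). The list of genes was written as tomato identifiers from general knowledge. Of the SEPALLATA clade 6 of 6 rose between the SYM and the F&IM, against 15.9% of all genes, led by J2 (log2 fold change 3.49 ± 0.14) and LIN (3.32 ± 0.11). By 2 dpi 4 of 6 rose further, against 20.2% of all genes, led by TM5 (4.23 ± 0.11), TM29 (3.77 ± 0.12) and EJ2 (2.42 ± 0.09). At that step 1 of the 5 AP1/FUL genes rose. Of the B-class genes for petals and stamens, 4 of 4 rose between 2 and 4 dpi, with a median log2 fold change of 5.79, against rises in 21.3% of all genes, and of the C- and D-class genes for stamens, carpels and ovules 2 of 3 tested (1 of the 4 listed did not pass the filter) rose, TAG1 by 5.33 ± 0.16 and TAGL1 by 3.52 ± 0.16, the step at which 4 of 5 AP1/FUL genes fell. Of 11 flowering and inflorescence regulators 6 rose and 5 fell between the SYM and the F&IM, a step at which 15.9% of all genes rose and 15.5% fell. Those with the smallest p were the falls of TMF (-3.20 ± 0.10), MBP24 (-2.11 ± 0.08) and STM3 (-1.97 ± 0.08). Between 2 and 4 dpi 8 of 11 fell, against 21.9% of all genes.

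Over the stages the genotype changed few of these, where 0.979% of all genes rose in fas and 0.831% in lc/fas. TM5, the SEPALLATA3-type gene, rose in fas (log2 fold change 0.33 ± 0.09, adjusted p = 0.037) and lc/fas (0.49 ± 0.09, adjusted p = 0.00044), as 1 of 6 of its clade. STM3, a SOC1-type MADS-box gene, rose in fas (0.33 ± 0.07, adjusted p = 0.0058) and lc/fas (0.32 ± 0.07, adjusted p = 0.0061), and SSP, the bZIP partner of the florigen, rose in fas (0.26 ± 0.06, adjusted p = 0.010) and lc/fas (0.21 ± 0.06, adjusted p = 0.059), as 2 of the 11 regulators. TAG1, the AGAMOUS gene for stamens and carpels, rose in fas (0.49 ± 0.14, adjusted p = 0.061), as 1 of 3 tested. In lc the value of TM5 was the same as in fas (0.33 ± 0.09) but did not pass the test (adjusted p = 0.13).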

How the data were processed

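Transcripts were counted by 3′ Tag RNA-seq in 60 libraries: 4 genotypes, 5 stages and 3 replicates, called biological in the study's methods, which do not say how plants were divided among them. The authors used fqtrim for trimming and Rsubread for alignment to the tomato genome, and took gene models from ITAG2.4. The deposited values are whole counts for 34725 genes, with no normalization. How reads were assigned to genes is not given in the sources used here. Submitters' notes name DESeq2. A line without a gene name, which in 60 of 60 libraries equals how many genes reached 3 counts and is at most 3.01% of a library, was left out. RPM was computed from the counts. No 2 replicates held identical values, and replicates correlated at r = 0.910 to 0.989. No genome annotation pairing these identifiers with sequences was used, so no coordinates or sequences are given.

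Tests were fitted with edgeR 4.0.16 in R 4.3.3 on all 60 libraries and the whole table: filterByExpr on the 20 groups (18901 genes), TMM, robust quasi-likelihood tests and Benjamini-Hochberg adjustment over all genes tested, where an adjusted p under 0.1 counted as a call. Models were stage and genotype, their interaction, and the 20 groups. Paralog ratios used log2(counts + 0.5) and an exact two-sided permutation of genotype within stages. The procedures were tested on simulated data. The simulated libraries were drawn independently of each other, so these tests do not cover correlation within a collection or between same-numbered replicates. The members, lists and tests were chosen with earlier results of these data known. Named genes are the 5 members, the 3 genes of nearest profile to each, up to 3 genes per list of the smallest p where any passed, and the markers.

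Same-numbered residuals of lc/fas and the wild type correlated above 0.1 in 15 of 15 pairs (0.173 to 0.822), against 9 of 15 in lc and 13 of 15 in fas, so the numbers pair the libraries for lc/fas. Alternatives were DESeq2 1.42.0, its size factors, total counts, no filter, a stricter filter of 10 counts in 0.5 of the libraries, the replicate block, limma-voom (limma 3.58.1) with a random block for the collection (1 genotype and 1 replicate number), sums of counts over a collection, the 4 floral stages, each stage by itself, a pseudocount of 5, 1 mean per collection, and leaving out the smallest library or each of the 12 collections. The ratios without the SYM and the paired test of the ratios were added after seeing the data.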

Additional observations from a re-analysis of the deposited data

Results flagged for a closer look

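FUL1 in lc/fas stood above every wild-type library in the SYM (19.97 ± 5.18 RPM in lc/fas, 12.2 ± 1.36 RPM in the wild type) and below every wild-type library at 4 dpi (24.8 ± 1.25 RPM in lc/fas, 29.1 ± 1.96 RPM in the wild type; SD, n = 3 each). The log2 ratios of the means at the 2 stages differed by 0.947. This difference between the 2 stages was not tested by itself. The joint genotype by stage test of FUL1 gave an unadjusted p of 0.026 and an adjusted p of 1.0 by edgeR, and at 4 dpi all libraries of lc/fas were below the wild type in 3.51% of all genes.

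MBP10 in fas stood above every wild-type library at 6 dpi (6.41 ± 2.30 RPM in fas, 3.44 ± 1.00 RPM in the wild type) and below all wild-type libraries of the F&IM (2.35 ± 0.06 RPM in fas, 3.29 ± 0.27 RPM in the wild type; SD, n = 3 each), so that the log2 ratios of the means differed by 1.379. This difference was not tested by itself either. MBP10 had 4 to 29 counts per library of fas at 6 dpi and 8 to 15 in the F&IM, and the joint genotype by stage test gave an unadjusted p of 0.16 (edgeR).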

How the results depend on the processing

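No result of the members changed its sign in any alternative in which it was called. The rises of MBP20 over the stages were lost, and 0 members were called for the genotype effect, fas and lc/fas, with limma-voom where collections were a random block, with counts summed per collection and with the 4 floral stages alone, against 1 member each. Leaving out 1 collection gave 0 to 1 members for fas over the stages. Within a stage 4 member tests were called, against 6 with the replicate block (MC in the SYM and FUL2 at 6 dpi of fas were added), 2 with no filter on low counts and 1 with the stage alone, and 0 to 6 when 1 collection was left out. Over all genes these tests within a stage gave 659 calls, against 2009 with the replicate block, 300 with no filter, 394 with the stricter filter, 419 with DESeq2 size factors and 52 with the stage alone, and from 57 without wild type replicate 3 to 7975 without wild type replicate 2. The replicate block, taken up for lc/fas because its numbers pair the libraries, changed no call of a member in lc/fas. For the stage steps leaving out 1 collection gave 13 to 14 calls of 20 over the genotypes and 8 to 11 in the wild type, against 14 and 11. Pairs of members with an unequal change numbered 3 in fas, 5 in lc/fas and 0 in lc, against 3, 7 and 0 with the replicate block. With 1 mean per collection they numbered 0 in fas and 0 in lc/fas, since 3 against 3 cannot pass, with a pseudocount of 5 they numbered 1 in lc, and without 1 collection they numbered 0 to 1 in lc, 1 to 3 in fas and 4 to 5 in lc/fas. Over all genes the genotype effect was called for 610 genes, against 1279 with the replicate block, 289 with the floral stages alone, 124 with limma-voom and 12 with counts summed per collection, and from 476 to 946 when 1 collection was left out. Depth limits MBP10 above all, with group means of 1.17 to 6.41 RPM.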
